A study of Homo sapiens with 16 samples.

Results

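Podocytes are the filtering epithelial cells of the glomerulus, and 6 transcription factor genes known from their development, WT1, TCF21, LMX1B, FOXC1, FOXC2 and FOXD1, were followed through kidney organoids grown from human embryonic stem cells. The genes were chosen by name as podocyte transcription factors. All 6 were measured in each table, among 20121 genes in bulk set 1, 27650 in bulk set 2, 21093 in the bulk TNF set and 36601 in the single-cell matrices.

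The bulk organoids came from UM77-2, 1 line of human embryonic stem cells, and bulk RNA was taken from isolated spheroids, whereas the single-cell libraries were made from whole wells. Set 1 has 1 library each on days 21, 25 and 29 (D21, D25 and D29). Set 2 has 2 libraries on each of these days, labelled Org1 and Org2, from organoids refed every day from day 17. The TNF set has a vehicle control (VC) and a TNFα library at 24 h and at 48 h, all collected on day 25. Spheroids of that set received 5 ng/ml TNFα, an inflammatory cytokine, on day 23, and the 48 h wells were dosed again on day 24. Dosing on day 23 and collection on day 25 do not by themselves give the 24 h libraries an exposure of 24 h. For almost all TNFα samples, the study's methods describe 24 h or 48 h of treatment that ended with collection on day 25. They do not name the day on which the 24 h wells were dosed, so 24 h and 48 h are used as the labels' names. The single-cell libraries are 1 VC and 1 TNFα library (5 ng/ml, 24 h) collected on day 24. The labels do not say whether libraries of a group came from separate cultures, so p-values measure the spread between these libraries, which may be technical. Bulk depth ran from 19073609 to 59246286 reads per library, and the lowest count of a member was 366 reads, for FOXD1 in set 1.

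These proteins bind DNA and act at successive steps of glomerulus formation. WT1, a zinc finger protein, is needed for kidney formation and is kept on in mature podocytes, where it binds near slit diaphragm genes, and its mutations cause Denys-Drash and Frasier syndromes. TCF21, a basic helix-loop-helix protein, binds E-box sequences and is made in podocytes and in interstitial mesenchyme. LMX1B, a LIM homeodomain protein, is mutated in nail-patella syndrome, which often affects the glomerulus. FOXC1 and FOXC2 are close forkhead relatives that act in podocytes and in paraxial mesoderm, and FOXC2 mutations cause lymphedema-distichiasis. FOXD1, another forkhead protein, is best known as a marker of renal stromal progenitors and is also made in podocytes.

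The sequences before the start sites of WT1, TCF21 and FOXD1 are shown because WT1 and TCF21 each start beside a gene read from the other strand, and because TCF21 and FOXD1 had the lowest levels relative to VC under TNFα. They are 250 bases, 5′ to 3′ on the gene's strand, from RefSeq on GRCh38.p14. Capitals mark CAGCTG, an E-box sequence, and GGGCGG, a GC box, on either strand (CCGCCC is GGGCGG on the other strand).
WT1, chr11:32435540-32435789, minus strand: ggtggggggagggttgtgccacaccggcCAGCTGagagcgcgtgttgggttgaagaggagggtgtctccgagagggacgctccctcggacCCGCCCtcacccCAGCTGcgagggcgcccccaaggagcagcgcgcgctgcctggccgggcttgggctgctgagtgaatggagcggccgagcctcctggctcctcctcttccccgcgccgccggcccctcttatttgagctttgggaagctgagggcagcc
TCF21, chr6:133888863-133889112, plus strand: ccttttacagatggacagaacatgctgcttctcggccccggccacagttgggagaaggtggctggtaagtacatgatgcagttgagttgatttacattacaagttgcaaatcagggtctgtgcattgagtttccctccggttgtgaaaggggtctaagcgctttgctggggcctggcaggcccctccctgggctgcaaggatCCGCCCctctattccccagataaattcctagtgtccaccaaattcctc
FOXD1, chr5:73448778-73449027, minus strand: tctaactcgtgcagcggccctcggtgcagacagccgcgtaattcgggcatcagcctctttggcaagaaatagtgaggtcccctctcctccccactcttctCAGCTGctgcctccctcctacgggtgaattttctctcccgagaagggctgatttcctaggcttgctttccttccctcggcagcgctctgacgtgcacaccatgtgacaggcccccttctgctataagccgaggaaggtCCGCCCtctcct
The table held such a window for 5 of the 6 genes, all except FOXC2. GGGCGG was in each of these 5 windows and in 42.6% of all 35116 windows of the same length. CAGCTG stood at 2 places in the WT1 window and 1 in the FOXD1 window, and 14% of all windows hold it. The forkhead sequence TGTTTAC (2.98% of windows), the homeodomain sequence TAATTA (4.35%), TATAAA (10.7%) and the kappa B consensus (5.21%) had no match in the 5 windows, and CCAAT (32%) had 1, in FOXC1. LMX1B and FOXC1 had the most G and C, at 76.4% and 76.8% of bases, WT1 had 70.4%, and TCF21 (52.8%) and FOXD1 (58.8%) lay near the 58.0% median of all windows. These matches describe the letters only.

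In GENCODE 44 on GRCh38, WT1 (ENSG00000184937) lies on the minus strand of chromosome 11 from 32387775 to 32435564, and WT1-AS, a non-coding RNA on the plus strand, starts 46 bases away and shares 47 exon bases with it. The WT1 window above therefore lies inside WT1-AS, and its last 25 bases lie inside the GENCODE model of WT1. TCF21 (ENSG00000118526) lies on the plus strand of chromosome 6 from 133889113 to 133895553, and the non-coding gene TARID, on the minus strand from 133502252 to 133892802, overlaps its first part and covers 23.5% of the TCF21 exon bases with its exons. LMX1B (ENSG00000136944) lies on the plus strand of chromosome 9 from 126613928 to 126701032, and the non-coding LMX1B-DT starts 228 bases away in the other direction. FOXC1 (ENSG00000054598, chromosome 6, 1609915 to 1613897, plus strand) and FOXC2 (ENSG00000176692, chromosome 16, 86566829 to 86569728, plus strand) are single-exon genes. FOXD1 (ENSG00000251493) lies on the minus strand of chromosome 5 from 73444827 to 73448777. FOXC2-AS1 shares 7.97% of the FOXC2 exon bases and FOXD1-AS1 shares 14.8% of those of FOXD1. The strand setting of the bulk read counting was not given in the sources used here, so reads of a gene and of its partner on the other strand cannot be told apart where their exons overlap.

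Bulk levels are given as CPM, the reads of a gene scaled to one common library size, and levels of different genes are compared only as CPM per kilobase of merged exons. On that scale TCF21 stood highest in 11 of the 13 bulk libraries, with WT1 next. In set 2 TCF21 ranged from 84.2 to 162 and WT1 from 34.7 to 104 CPM per kilobase, while LMX1B (7.63 to 24.8) and FOXD1 (7.28 to 19.4) were lowest. FOXC2 stood above FOXC1 in 5 of the 6 set 2 libraries and below it in D29 replicate 2. On D29 the libraries of FOXC2 and FOXC1 overlapped, as did those of LMX1B and FOXD1. In both TNFα libraries WT1 stood above TCF21, in reverse of the VC libraries of the same table.

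Across days of culture, WT1, LMX1B and FOXC2 were lower on D29 than on D21 in set 2, whereas TCF21, FOXC1 and FOXD1 did not pass the test. The test was limma on log2(CPM + 1) with all 6 libraries and adjustment over all genes, called at an adjusted p under 0.05. By that rule 8.33% of all genes were called lower and 18.4% in either direction. The D21 libraries held 761 and 844 CPM of WT1, those of D25 607 and 598, and those of D29 491 and 282. The D29 libraries were the lowest and did not overlap the other days, and the log2 fold change from D21 was −1.11 (SE 0.22, adjusted p = 0.0109). The D21 libraries held 138 and 157 CPM of LMX1B, those of D25 124 and 141, and those of D29 105 and 48.4. Its D21 and D25 libraries overlapped, its D29 libraries lay below them, and the change from D21 to D29 was −1.04 (SE 0.29, adjusted p = 0.0439). The D21 libraries held 159.6 and 202 CPM of FOXC2, those of D25 124 and 135, and those of D29 101 and 56.0. The days of FOXC2 did not overlap, and the change was −1.24 (SE 0.24, adjusted p = 0.0101).

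The other 3 genes did not pass the test. The D21 libraries held 483 and 459 CPM of TCF21, those of D25 554 and 595, and those of D29 550.1 and 309.7. Its D25 libraries were higher than its D21 libraries, and its D29 libraries lay on either side of D21, with a log2 fold change of −0.19 (SE 0.22, adjusted p = 0.631 in limma). The D21 libraries held 144 and 151 CPM of FOXC1, those of D25 149.7 and 163, and those of D29 135 and 96.7. Both D29 libraries of FOXC1 were the lowest, but the change of −0.37 (SE 0.14, adjusted p = 0.114 in limma) did not pass. The D21 libraries held 41.4 and 55.6 CPM of FOXD1, those of D25 43.4 and 51.5, and those of D29 41.9 and 20.8. The days of FOXD1 overlapped, and the change was −0.68 (SE 0.28, adjusted p = 0.145 in limma). Both D29 libraries lay below both D21 libraries for 4 of the 6 genes, as for 32.8% of all genes. Both D25 libraries lay below both D21 libraries for WT1 and FOXC2, as for 25.6% of all genes.

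**Figure D1:**
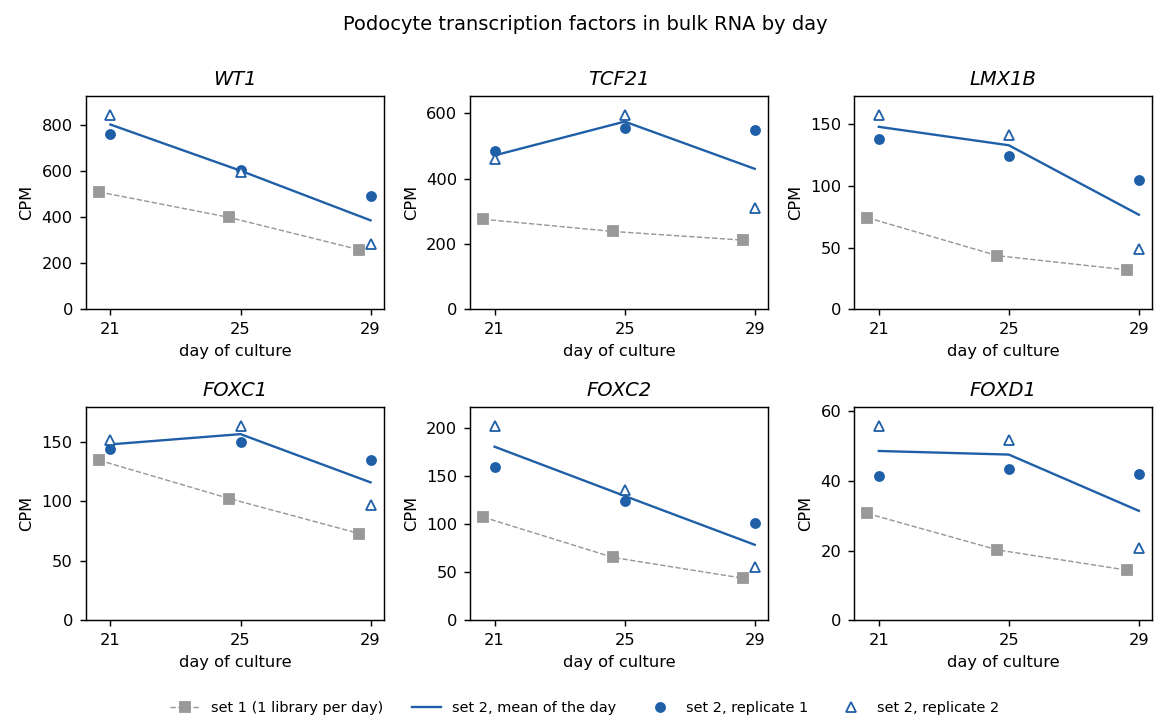
CPM of each gene (linear axis from 0) against day of culture, with a point for each set 2 library (filled, replicate 1; open, replicate 2), a line through the set 2 means of each day, and squares for set 1, drawn to the left of their day. The sets were normalized separately and their levels are not comparable. In set 1 all 6 genes are lower at each later day, and D29 replicate 2 is the lowest set 2 library in every panel.

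D29 replicate 2 was the lowest of the 6 set 2 libraries for every member, as it was for 26.1% of all genes. In that library the 9 podocyte markers summed to 3621 CPM, while D29 replicate 1 had 7410, the D25 libraries 8567 and 8787, and the D21 libraries 10055 and 10375. The 7 stromal markers summed to 13393 CPM there, 10845 in D29 replicate 1, and 3474 and 2830 on D21, and 6 of the 7 were called higher on D29. The 7 neuronal markers went from 190 and 197 CPM on D21 to 411 and 673 on D29, with 6 of 7 called higher. The 8 proximal tubule markers went from 1203 and 1041 CPM on D21 to 638 and 481 on D29, with 5 called lower. Of the 6 distal tubule markers measured, 4 were called lower. All 9 podocyte markers were below their D21 level on D29 and 4 were called lower, and no podocyte marker was at 0 reads. In bulk RNA fewer podocytes and less RNA of a gene per podocyte cannot be told apart. The part of these shifts in the changes above was not tested.

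The 3 calls rested on few libraries. Without D29 replicate 2 the log2 fold changes were −0.71 for WT1, −0.49 for LMX1B and −0.82 for FOXC2, each still called (adjusted p = 0.00282, 0.0237 and 0.00652 in limma), and TCF21 turned to 0.22 without a call. Without D29 replicate 1 the changes ran from −0.60 for TCF21 to −1.66 for FOXC2. Without D21 replicate 1 only FOXC2 was called, since WT1 had an adjusted p of 0.0590 and LMX1B of 0.14 in limma. Without D21 replicate 2 no member was called, and FOXC2 had 0.0889. LMX1B also lost its call without either D25 library (adjusted p = 0.0752 and 0.0746), in DESeq2 (0.146) and in limma without a trend. In these fits a day left with 1 library was assumed to vary like the other days.

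**Figure D2:**
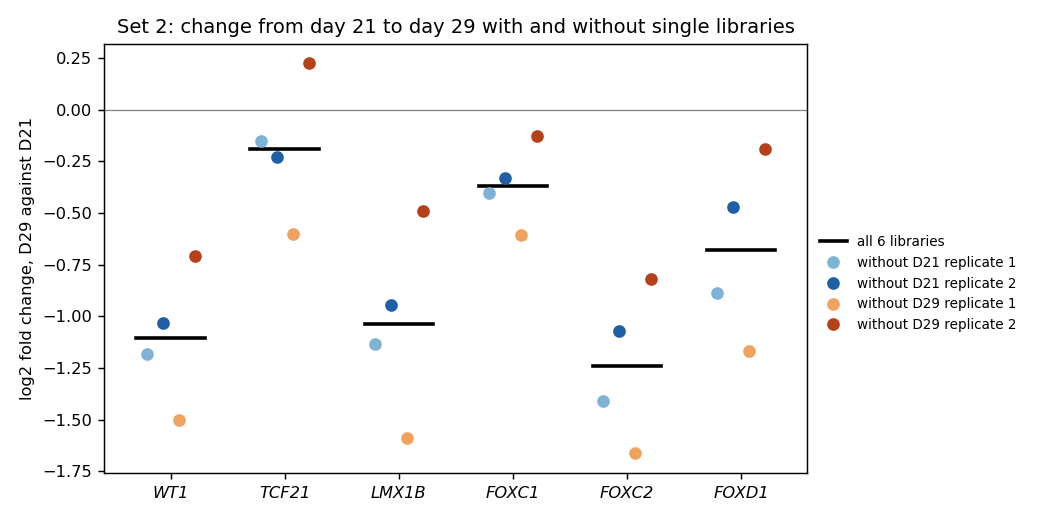
Log2 fold change of D29 against D21 in set 2 for each gene, with a bar for the fit on all 6 libraries and a point for each fit without 1 of the D21 or D29 libraries. The points without D29 replicate 2 are the highest for every gene, up to 0.22 for TCF21, and those without D29 replicate 1 the lowest, down to −1.66 for FOXC2.

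Both steps between the ends share libraries with the comparison above. From D21 to D25 none of the 6 genes was called (1.99% of all genes were called lower, 3.39% higher and 5.37% in either direction), and edgeR and DESeq2 also gave 0. The changes over this step ran from −0.47 for FOXC2 to 0.29 for TCF21, and none had an unadjusted p under 0.05. With either D29 library left out of the fit, WT1 (−0.41) and FOXC2 (−0.47) were called lower over this step, with adjusted p from 0.0176 to 0.0403 in limma. From D25 to D29 none was called either (0.825% lower, 1.25% higher and 2.08% in either direction), again with 0 in edgeR and DESeq2. All 6 were below 0 over that step, from −0.45 for FOXC1 to −0.89 for LMX1B. Both D29 libraries lay below both D25 libraries for each of them, as for 25.5% of all genes. The adjusted p in limma over that step ran from 0.155 for FOXC1 and FOXC2 to 0.326 for TCF21. Without D29 replicate 1 the changes from D25 to D29 ran from −0.69 for FOXC1 to −1.44 for LMX1B.

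Set 1, with 1 library per day and no test, gives a second series of values. From D21 through D25 to D29, WT1 measured 509.8, 399 and 259 CPM, TCF21 275, 238 and 211, and LMX1B 74.2, 43.4 and 31.8. FOXC1 measured 134, 102 and 72.9 CPM, FOXC2 107.6, 65.6 and 43.9, and FOXD1 30.6, 20.2 and 14.4. Each of the 6 was lower at both steps, as 23% of all genes were, where 50.5% were below 0 from D21 to D29 and 50.1% from D25 to D29. No member passed −1 from D21 to D25 (0.378% of all genes) or from D25 to D29 (0.537%). FOXC2 (−1.27), LMX1B (−1.20) and FOXD1 (−1.04) passed a log2 fold change of −1 from D21 to D29, as 1.41% of all genes did, and WT1 (−0.98), FOXC1 (−0.87) and TCF21 (−0.38) did not. The change of TCF21 from D21 to D25 was −0.21 in set 1 and 0.29 in set 2. Over these days the 9 podocyte markers of set 1 summed to 6414, 4135 and 2822 CPM and the 7 stromal markers to 5549, 12716 and 14759. The 7 neuronal markers of set 1 summed to 824, 755 and 594 CPM, a fall where set 2 had a rise.

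Under TNFα all 6 genes were lower in bulk spheroids than in VC. The limma model held both treatment and time, with the 24 h and 48 h libraries in place of replicates, so that the spread was mostly borrowed from other genes. By this test 10.8% of all genes were called lower, 8.42% higher and 19.3% in either direction. TCF21 measured 297 CPM in VC and 149 in TNFα at 24 h, and 298 and 126 at 48 h, a log2 fold change of −1.11 (SE 0.07, adjusted p = 1.55e-09). FOXD1 measured 57.5 and 25.3 CPM at 24 h and 53.4 and 23.9 at 48 h, a change of −1.14 (SE 0.07, adjusted p = 4.16e-09). For both genes the TNFα libraries lay far below both VC libraries, which stood close together. LMX1B measured 93.5 and 58.7 CPM at 24 h and 80.1 and 42.0 at 48 h, a change of −0.79 (SE 0.07, adjusted p = 3.66e-07). WT1 measured 515 and 369.9 CPM at 24 h and 493 and 319.6 at 48 h, a change of −0.55 (SE 0.06, adjusted p = 4.43e-06). FOXC1 and FOXC2 had the smallest differences. FOXC1 measured 173 and 133 CPM at 24 h and 169 and 129 at 48 h, a change of −0.38 (SE 0.06, adjusted p = 0.000198). FOXC2 measured 96.1 and 88.0 CPM at 24 h and 93.1 and 64.3 at 48 h, a change of −0.33 (SE 0.08, adjusted p = 0.00763). The call of FOXC2 was lost in DESeq2 (adjusted p = 0.0754), without a trend and without the time term, and the other 5 calls held in all 7 alternatives.

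**Figure D3:**
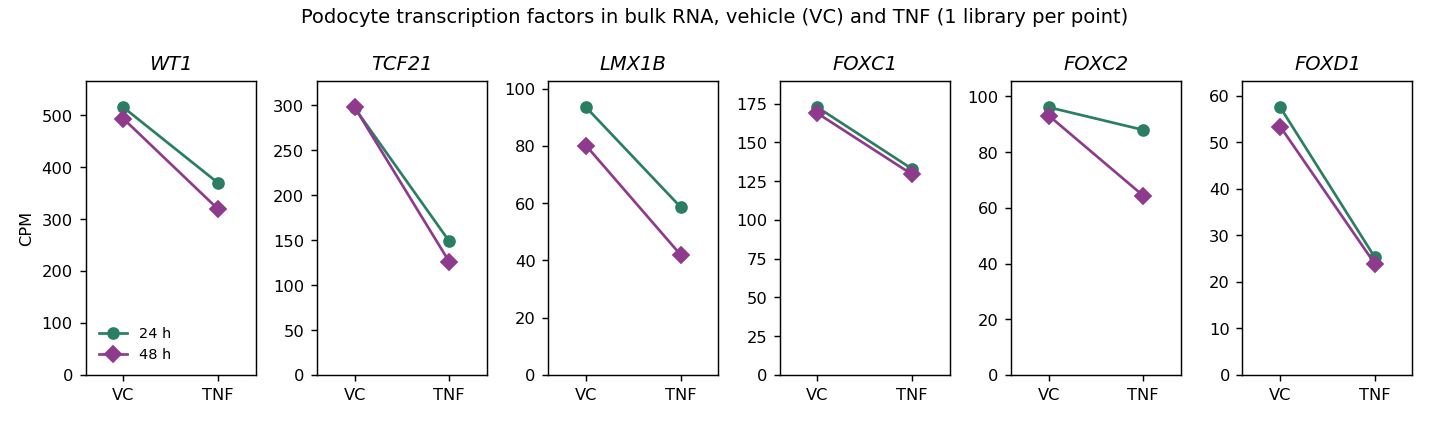
CPM of each gene (linear axis from 0) in the 4 bulk libraries of the TNF set, 1 library per treatment and time, with a line joining VC and TNF of the same time. The TNFα library lies below the VC library of the same time in every panel, and FOXD1 and TCF21 have the widest gaps relative to VC.

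Both TNFα libraries lay below both VC libraries for all 6 genes, as for 27.4% of all genes. Below VC at 24 h were 58.3% of all genes, and 52.9% at 48 h. Taken by time, with no test, the difference on the log2 scale was larger at 48 h than at 24 h for WT1 (−0.62 and −0.48), TCF21 (−1.23 and −0.99), LMX1B (−0.92 and −0.66) and FOXC2 (−0.53 and −0.13). FOXC1 (−0.38 and −0.37) and FOXD1 (−1.13 and −1.15) stood at nearly the same distance at both times. For 5 members, FOXC1 included, the 48 h value was the lower, and 18.3% of all genes were below VC at both times and further at 48 h. FOXD1 passed −1 at both times and TCF21 at 48 h, a size reached by 0.73% of all genes at 24 h and 0.754% at 48 h. From the 24 h to the 48 h VC library the members differed by 0.00 for TCF21 to −0.22 for LMX1B, with 5 of 6 below 0 (48.6% of all genes) and none past −1 (0.0569%). The podocyte markers summed to 5943 and 5469 CPM in VC and 3796 and 2823 in TNFα, and 8 of 9 were called lower and 1 higher. The stromal markers summed to 4686 and 5770 CPM in VC and 5986 and 6079 in TNFα, with 3 called higher and 2 lower. The 8 proximal tubule markers summed to 976 and 953 CPM in VC and 527 and 582 in TNFα, and all 8 were called lower. Their part in the changes of the members was not tested.

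Most genes that lie beside the members were also lower on D29 in set 2. WT1-AS measured 152 and 179 CPM on D21 and 95.7 and 54.9 on D29, a log2 fold change of −1.18 (SE 0.22, adjusted p = 0.00825 in limma). TARID measured 68.5 and 62.7 CPM on D21 and 38.4 and 18.5 on D29, a change of −1.27 (SE 0.27, adjusted p = 0.0148 in limma), while TCF21 itself was not called. LMX1B-DT (−0.92, adjusted p = 0.0103) and FOXC2-AS1 (−0.41, 0.0369) were also called lower in limma. FOXC2-AS1 was low, with 0.163 to 0.707 CPM in set 2. With FOXCUT not called, 4 of these 5 genes were called lower, beside 8.33% of all genes. The list of neighbours also held GMDS-DT (−0.33, adjusted p = 0.0303 in limma), which starts at 2245718 on chromosome 6 and so does not lie beside FOXC1, and FOXD1-AS1, not analysed here in set 2. Under TNFα WT1-AS (−0.81), TARID (−0.94) and LMX1B-DT (−0.51) were called lower, and FOXC2-AS1, again under 1 CPM, was called higher (0.38, adjusted p = 0.0201 in limma).

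Genes that these factors act beside were read as lists. Over all genes, 8.33% were called lower and 10% higher on D29 in set 2, and 10.8% lower and 8.42% higher under TNFα. Among 23 podocyte structure and slit diaphragm genes, the D29 against D21 test of set 2 gave 3 rises and 8 falls, and the median change was −0.62, against −0.86 for the 6 members and −0.02 for all genes. NPHS1, which encodes the slit diaphragm protein nephrin, had the largest called fall, from 1163 and 1230 CPM to 478 and 215 (−1.90, adjusted p = 0.00413 in limma). VEGFA, the endothelial growth factor made by podocytes, changed by −1.20 (adjusted p = 0.0111). COL4A3 and COL4A4, collagen chains of the mature glomerular basement membrane, rose by 1.63 and 1.88 on the log2 scale (adjusted p = 0.000798 and 0.00019 in limma), in the opposite direction to WT1 and LMX1B. Both were low in the VC podocyte-like single cells described below, at 0.692 CPM (6 UMIs) and 6.69 CPM (58 UMIs), against 362 for NPHS1. Which cells held the bulk rise was not tested. Under TNFα 17 of the 23 were called lower and 1 higher, with a median of −0.66 against −0.67 for the members and −0.03 for all genes. DDN, which encodes the actin-linked protein dendrin, changed most (−2.16), followed by THSD7A (−1.44), an antigen of membranous nephropathy, and CRB2, a polarity protein, was higher (0.24, adjusted p = 0.0113 in limma).

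Among 16 other transcription factors of the nephron lineage the calls on D29 in set 2 were 11 falls and 2 rises, with a median of −0.66. In set 1, with no test, their median from D21 to D29 was −0.07, with 3 at −1 or below and 1 at 1 or above. In set 2 the named changes were as follows. HNF4A, a proximal tubule factor, measured 122 and 119 CPM on D21 and 34.6 and 34.0 on D29 (−1.78, adjusted p = 3.4e-05 in limma), and HEY1, a Notch target, changed by −1.40. The nephron progenitor factors SIX2 (1.12) and OSR1 (1.19) were called higher. SIX2 was low, with 0.669 and 0.671 CPM on D21 and 2.53 and 2.73 on D29. OSR1 measured 7.91 and 10.2 CPM on D21 and 19.6 and 24.0 on D29. With TNFα 6 of these 16 were called lower and 2 higher, with a median of −0.03, where that of all genes was also −0.03. HNF4A was among those called lower (−1.10, adjusted p = 1.04e-08 in limma).

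Stromal factors went the other way over the days. Among 12 stromal lineage factors the calls on D29 were 8 rises and no fall, and their median was 0.53. PRRX1, a mesenchymal homeodomain protein, rose from 7.35 and 5.71 CPM on D21 to 33.4 and 57.3 on D29 (2.58, adjusted p = 0.000314 in limma), and TWIST2 rose by 1.45 on the log2 scale. With TNFα only PRRX1 (0.77) and TBX18 (0.68) were called higher of the 10 measured, and none was lower. Relatives of the members had calls in both directions. On D29 4 of 11 were higher and 3 lower, FOXC2 among the latter. With TNFα FOXQ1 rose (1.32, adjusted p = 9.25e-08 in limma) while 6 of the 10 measured, with FOXC1 and FOXC2 among them, were lower. FOXQ1 also differed between the VC libraries, with 10.3 CPM at 24 h and 20.6 at 48 h, against 33.6 and 42.8 in TNFα.

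Single cells show which cells held these transcripts. After a filter on more than 500 detected genes, 11906 of 12494 VC barcodes and all 23160 TNFα barcodes were kept, and 74 barcodes occur in both libraries. The median cell had 6358.5 UMIs in VC and 2599 in TNFα. Cells were clustered without the 6 genes and named from separate markers. A podocyte-like cluster raised 9 of 9 podocyte markers, NPHS1 and PODXL among them, and held 930 VC and 3110 TNFα cells. A further cluster of 498 VC and 1542 TNFα cells raised 7 of these 9 and also 5 of 7 early nephron markers, and is called podocyte-like with early nephron markers. There is 1 library per condition, so no test was possible. Levels are given as CPM of all UMIs in a class, followed by their 95% interval (exact Poisson), which covers counting error alone.

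Among the named classes, all 6 genes were highest in the podocyte-like cells of both libraries. This held without alignment, without called doublets, in cells with at least 1500 UMIs and after thinning. Without alignment a cluster with 67.1% of the TNFα cells could not be named and was not ranked. At a finer resolution (0.5) the ranking held for both podocyte-like clusters summed. In the larger of them alone, the TNFα cells held 233 CPM of WT1, 212 of FOXC2 and 107 of FOXD1, below the 291, 231 and 112 in TNFα podocyte-like cells with early nephron markers. In VC, TCF21 reached 1495 CPM (1469 to 1521) in podocyte-like cells, 602 (583 to 622) in those with early nephron markers and 149 (142 to 155) in stromal-like cells. WT1 reached 581 (565 to 598) and 479.6 (463 to 497) in the same podocyte-like classes, 242 (230.3 to 254) in gonadal or coelomic epithelium-like cells and 149 (142 to 155) in stromal-like cells. LMX1B was the most restricted, at 105 CPM (98.2 to 112) and 43.8 (38.8 to 49.3) in the podocyte-like classes and 0.447 to 4.42 in the other named classes. FOXD1, at 367 (354 to 380) and 167 (157 to 177), had 19.4 (17.1 to 21.8) in stromal-like cells and 12.7 or less in the other named classes.

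FOXC1 and FOXC2 were also found in muscle-like and proliferating-like cells. The proliferating-like cells of VC held TCF21 (87.2 CPM) and WT1 (75.8 CPM) as well. FOXC1 reached 237 CPM (226 to 247) in podocyte-like cells and 143 (134 to 153) in those with early nephron markers, then 106 (99.0 to 113) in muscle-like, 76.2 (69.8 to 83.0) in proliferating-like, 66.5 (62.3 to 70.9) in stromal-like and 63.6 (60.1 to 67.4) in proximal tubule-like cells. FOXC2 reached 473 (458 to 487) in podocyte-like cells and 394 (379 to 410) in those with early nephron markers, then 99.1 (92.7 to 106) in muscle-like and 92.5 (85.5 to 100) in proliferating-like cells. The podocyte-like cluster held 66.2% of the LMX1B UMIs of the VC library, 64.0% of FOXD1, 60.6% of TCF21, 40.9% of FOXC2, 35.7% of WT1 and 28.1% of FOXC1. The cluster held 7.81% of the VC cells.

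**Figure D4:**
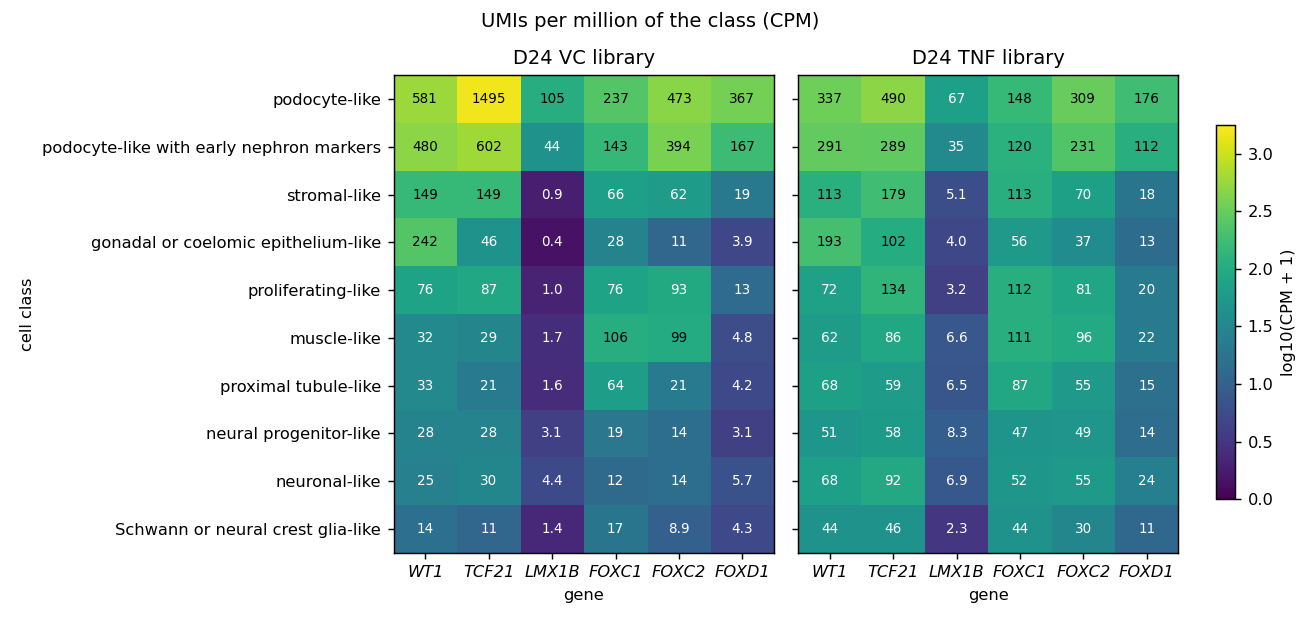
Heat map of the CPM of each gene (columns) in each named cell class (rows) of the VC and TNFα single-cell libraries, with the CPM printed in each cell and coloured as log10(CPM + 1). The podocyte-like row holds the highest value of each column in both libraries, from 105 for LMX1B to 1495 for TCF21 in VC.

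UMIs of the members were also read against those of NPHS1 in each class, relative to the same ratio in podocyte-like cells. That ratio is not shared by all podocyte-like cells. In VC those with early nephron markers stood at 0.356 times it for TCF21 to 0.737 times for FOXC2. The part of free RNA from podocytes in these values was not tested. In VC gonadal or coelomic epithelium-like cells WT1 stood at 22.5 times its podocyte-like ratio to NPHS1, and in stromal-like cells at 22.6 times. FOXC1 stood at 20.5 times in muscle-like and 24.8 times in stromal-like cells. FOXC2 stood at 9.63 times in muscle-like and 11.6 times in stromal-like cells. In the TNFα library the same values were smaller, at 5.75 and 3.43 times for WT1. They were 6.11 and 7.80 times for FOXC1 and 2.53 and 2.31 times for FOXC2. The largest VC values of FOXC1 (42.2 times) and FOXC2 (25.6 times) were in proliferating-like cells, where WT1 stood at 17.1 times. TCF21 stood at 8.79 times in VC stromal-like cells. In VC, LMX1B stood at 0.727 times in stromal-like cells (12 UMIs) and at 1.70 times in neuronal-like cells (61 UMIs). These VC values rest on few NPHS1 UMIs. There were 19 in proliferating-like, 45 in gonadal or coelomic epithelium-like, 57 in stromal-like, 71 in muscle-like and 124 in neuronal-like cells. NPHS1 itself measured 8.98 CPM in neuronal-like cells of VC and 30.8 in those of TNFα, against 362 and 209 in podocyte-like cells.

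To set cells of equal depth beside each other, each cell was thinned to 1500 UMIs, which left out 953 shallower VC cells, 34 of them podocyte-like, and no TNFα cell. In VC, TCF21 had a UMI in 78.5% of 896 podocyte-like cells and in 3.04% of neuronal-like cells, a class shown for comparison and not free of members. The same shares were 57.6% and 3.29% for WT1, 52.6% and 1.86% for FOXC2, 36.9% and 0.932% for FOXD1, 29.0% and 0.994% for FOXC1, and 16.9% and 0.994% for LMX1B. Without thinning the VC podocyte-like shares were 95.8% for TCF21, 90.0% for WT1, 87.1% for FOXC2, 71.1% for FOXD1, 67.6% for FOXC1 and 49.0% for LMX1B (median depth 5006 UMIs, and 6335 in neuronal-like cells). Of the thinned VC podocyte-like cells 56.4% had UMIs of at least 3 of the 6, against 0.248% of neuronal-like cells, and 8 cells had all 6. WT1 and TCF21 were both found in 45.6% of these podocyte-like cells, where the product of their shares gives 45.2%. The same values were 32.0% and 30.3% for WT1 and FOXC2, and 9.82% and 10.7% for FOXC1 and FOXD1. For these pairs in VC podocyte-like cells, joint detection was thus near what the single shares give. In TNFα podocyte-like cells the values were 14.2% and 12.3% for WT1 and TCF21, and 11.1% and 9.99% for WT1 and FOXC2. They were 3.02% and 3.07% for FOXC1 and FOXD1.

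In the main clustering, TNFα podocyte-like cells held less of each gene than VC podocyte-like cells. TCF21 went from 1495 to 490.1 CPM, a ratio of 0.328 (0.318 to 0.338), and FOXD1 from 367 to 176, a ratio of 0.480 (0.454 to 0.507). WT1 went from 581 to 337 CPM, a ratio of 0.580 (0.556 to 0.605). FOXC1 (0.626, 0.587 to 0.668), LMX1B (0.641, 0.582 to 0.706) and FOXC2 (0.653, 0.625 to 0.683) lay close together. The median ratio over 13330 genes with at least 50 UMIs was 0.996, and 2.9% of them had a ratio of 0.5 or less, as TCF21 and FOXD1 did, and 8.63% had one of 2 or more. Thinned to equal depth, the ratios ran from 0.280 for TCF21 to 0.584 for FOXC1. These ratios compare 2 libraries, and their intervals cover counting error only. The podocyte markers PODXL (0.522) and NPHS1 (0.577) were also lower in the TNFα podocyte-like cells, and CRB2 (0.867) less so. Whether the ratios of the members compare like cells was not tested. In the finer cluster of 693 TNFα cells described below, the intervals of LMX1B and FOXC2 include 1. In podocyte-like cells with early nephron markers the ratios were 0.480 for TCF21, 0.586 for FOXC2, 0.606 for WT1, 0.672 for FOXD1, 0.802 for LMX1B and 0.834 for FOXC1.

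A neuronal gene, STMN2, measured 41.3 CPM in podocyte-like cells of VC and 90.0 in those of TNFα, and 3094 and 1603 in neuronal-like cells. At the finer resolution the TNFα podocyte-like cells fell into a cluster of 2408 cells, with 141 CPM of STMN2, and one of 693 cells, with 15.2 CPM. The 2408 cells held 607 CPM of PODXL, 147 of NPHS1 and 85.7 of the muscle gene ACTC1. The 693 cells held 1519, 299 and 10.7 CPM of these genes. The 925 VC cells that shared a cluster with the 2408 held 1870, 361 and 4.53 CPM. Against the 925 VC cells of the former cluster, the 693 TNFα cells had ratios of 0.516 (0.498 to 0.536) for TCF21, 0.731 for FOXC1, 0.764 for FOXD1 and 0.843 (0.803 to 0.886) for WT1. FOXC2 (0.955, 0.906 to 1.01) and LMX1B (1.05, 0.937 to 1.17) had intervals that include 1. In the other 2408 TNFα cells WT1 measured 233 CPM and TCF21 299. Without alignment of the libraries the ratios were 0.497 for TCF21, 0.735 for FOXC1, 0.737 for FOXD1, 0.751 for WT1, 0.811 for FOXC2 and 0.927 (0.844 to 1.02) for LMX1B, but a cluster with 67.1% of the TNFα cells could not be named there. The part of free RNA and of the 2 library depths in these ratios was not tested.

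**Figure D5:**
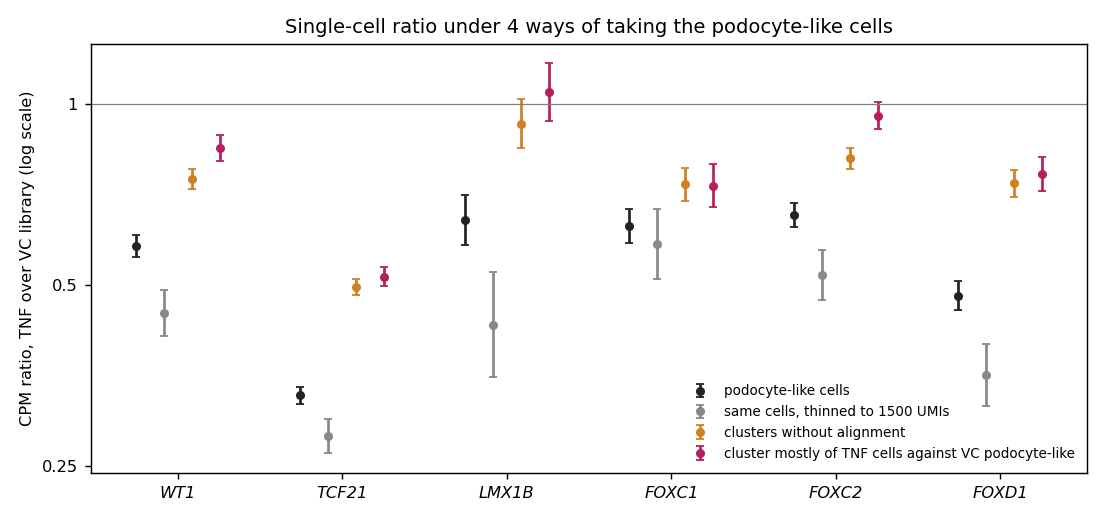
TNFα over VC ratio of the CPM of each gene (log axis) in podocyte-like cells, with 95% intervals for counting error, for the main clusters, the same cells thinned to 1500 UMIs, clusters without alignment, and the finer cluster mostly of TNFα cells. TCF21 lies at 0.516 or below in all 4, and the upper bound passes 1 for LMX1B without alignment and for LMX1B and FOXC2 in the finer cluster.

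After thinning, UMIs of TCF21 were in 37.7% of 3110 TNFα podocyte-like cells and 14.5% of neuronal-like cells, and those of WT1 in 32.6% and 10.8%. The shares were 30.7% and 9.13% for FOXC2, 19.2% and 8.86% for FOXC1, 16.0% and 4.56% for FOXD1, and 7.52% and 1.42% for LMX1B. At least 3 members were found in 17.0% of these podocyte-like cells and in 1.57% of neuronal-like cells. Summed over all cells of a library, where classes are not held apart, the TNFα to VC ratio was 0.822 for TCF21, 0.955 for WT1, 0.967 for FOXD1, 1.12 for FOXC2, 1.20 for LMX1B and 1.36 for FOXC1. The last 3 go against the bulk spheroids, where these genes were lower under TNFα. Podocyte-like cells were 7.81% of VC and 13.4% of TNFα cells, and those with early nephron markers 4.18% and 6.66%. The cause of the difference from bulk was not tested.

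Genes with the most similar pattern over the 28 combinations of cluster and library were ranked by Pearson's r of log2(CPM + 10) among 10522 genes. The points share libraries and free RNA, so r is a description. WT1 was closest to its partner WT1-AS (r = 0.984), then BST2 (0.952) and TYRO3 (0.945), and TCF21 was closest to TARID (0.976), P3H2 (0.968) and SLC9A3R2 (0.956). LMX1B was closest to TMEM150C (0.975), CLIC5 (0.973) and ST3GAL6 (0.971), and FOXD1 to MRGPRF (0.979), SYNPO (0.974) and VEGFA (0.971). CLIC5 and SYNPO, which encode proteins of the podocyte cytoskeleton, and TYRO3 were also among the markers that named the podocyte-like cells. FOXC1 was closest to FOXC2 (0.886), FGFRL1 (0.868) and IL13RA1 (0.860), lower values than those of the other members. FOXC2 was closest to MXRA8 (0.931), TSC22D3 (0.907) and P3H2 (0.897). Among the members themselves, LMX1B and FOXD1 were most alike (0.947), then TCF21 and FOXD1 (0.943), and LMX1B and FOXC1 least (0.563).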

How the data were processed

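Bulk RNA of isolated spheroids and single-cell RNA of whole wells were analysed from the values that the authors deposited. For the bulk log2 values, the authors aligned reads with STAR 2.7.8a to GRCh38, counted genes with HTSeq (0.11 in the processing notes) and normalized with voom. The deposited value was read as log2(CPM + 1) with 0.5 reads added per gene: whole reads came back for 100% of values within 0.01 reads. Single-cell values are UMI counts, deposited as filtered Cell Ranger matrices (version 6.0.1 by the file header, 2.1.1 by the processing notes). The day 25 single-cell library is not analysed here, and some genes are not reported here.

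In set 2 a mean per day, and in the TNF set time and treatment, were fitted with limma 3.58.1 in R 4.3.3 (eBayes with a trend, Benjamini-Hochberg over all genes of a table). Set 1 and single times have no test. Recovered reads went into edgeR 4.0.16 and DESeq2 1.42.0 as alternatives. Same-numbered libraries of set 2 were not treated as pairs in the main fit, since the methods do not name such pairs. Their deviations from the day means correlated at 0.141, 0.0756 and 0.268. Tables were normalized separately and compared only within themselves.

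Single cells were clustered on 3429 variable genes without the members, on 30 components aligned with Harmony, with Leiden at a resolution of 0.25 (scanpy 1.11.5, leidenalg 0.10.2, Python 3.11.15). A marker counted at 20 CPM and a log2 fold of 1 over other cells (pseudocount 10 CPM), and 3 such markers named a cluster. Ties went to the list with most markers among the top 10 genes, a rule set after the clusters were seen, as was the separation of podocyte-like cells with early nephron markers. The 14 clusters left 2 unnamed. Scrublet's automatic threshold marked 0 cells, so the top-scoring 9.18% of VC and 17.0% of TNFα cells were taken as doublets and kept in the main result. Ratios carry exact 95% intervals.

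The members, lists and named-gene rule were chosen with earlier results of these data known. Beside the members, the text names the 3 genes most like each member and, from each list, up to 2 called rises and 2 called falls. Simulated data with 200 changed genes at a log2 change of 1.5 were run through limma. It gave 199 of them for set 2 (1 false call) and 200 for the TNF set (15 false calls). The simulation gave every gene the same spread beyond counting error and no library a shift of its own. In set 2 the SD of the D29 libraries ran from 0.337 for FOXC1 to 0.776 for LMX1B on the log2 scale. The simulation therefore does not show how often changes of the members would be called.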

Additional observations from a re-analysis of the deposited data

Results flagged for a closer look

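TCF21 went in opposite directions from D21 to D25 in the sets of bulk libraries. In set 2 its log2 fold change was 0.29, from 483 and 459 CPM to 554 and 595, and in set 1 it was −0.21, from 275 to 238 CPM with 1 library per day. The difference between the sets was not tested, and the sets differ in refeeding and sequencer by their labels.

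In single cells, 4 members were higher under TNFα in stromal-like cells and lower in podocyte-like cells. The stromal-like TNFα to VC ratios were 1.20 (1.14 to 1.27) for TCF21, 5.89 (3.20 to 11.9) for LMX1B, 1.70 (1.57 to 1.84) for FOXC1 and 1.12 (1.03 to 1.23) for FOXC2, with intervals for counting error only. Ratios above 1 were not particular to stromal-like cells: in neuronal-like cells all 6 members were above 1, at 2.71 for WT1, 3.03 for TCF21, 1.57 for LMX1B, 4.28 for FOXC1, 3.89 for FOXC2 and 4.32 for FOXD1, and all 6 were also above 1 in proximal tubule-like, neural progenitor-like and glia-like cells. In stromal-like cells WT1 (0.759, 0.713 to 0.809) and FOXD1 (0.908, 0.766 to 1.08) were below 1. The share of all genes with a ratio above 1 was not counted in these classes. These differences were not tested, since each condition has 1 library. LMX1B rests on 12 VC and 84 TNFα UMIs in stromal-like cells. NPHS1 measured 4.10 CPM in stromal-like cells of VC and 20.4 in those of TNFα, and 8.98 and 30.8 in neuronal-like cells, and the part of free RNA in these ratios was not tested.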

How the results depend on the processing

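For the count of members called lower, the alternatives were log2(CPM) without the added 1, genes of at least 1 CPM, median centring, edgeR, DESeq2, no trend and each library left out. From D21 to D29 the count of 3 became 5 with median centring, and 0 to 6 with a library left out. From D21 to D25 the count of 0 became at most 2, and from D25 to D29 0 to 6, with a library left out. With a replicate block the counts were 3, 0 and 0, and it changed no member's call. It gave 6056, 2091 and 1118 calls over all genes, against 5081, 1486 and 574. With a library left out, TCF21 ranged from −0.60 to 0.22 from D21 to D29, above 0 only without D29 replicate 2, and FOXD1 from −0.23 to 0.19 from D21 to D25, above 0 without D21 replicate 2 and at 0.10 without D25 replicate 1. The LMX1B ratio in podocyte-like cells turned from 0.641 to 1.05 for the finer cluster of mostly TNFα cells, a comparison chosen after seeing the data. The cause of these moves was not tested. Of the values recomputed for these counts 55 stayed within 1.5 times and 7 moved, and of those for single genes 303 stayed, 38 moved, 15 gained and 12 lost a call, and 4 turned.
Over all genes, median centring changed the calls from 2778 higher and 2303 lower to 2408 and 4667 from D21 to D29, and from 937 and 549 to 971 and 1281 from D21 to D25. DESeq2 gave 1198 higher and 970 lower under TNFα, against 1776 and 2285, and no time term gave 1310 in all against 4061. From D25 to D29 the total of 574 became 859 without the added 1, 1128 with the CPM filter, 1233 with median centring, 1336 in edgeR, 1278 in DESeq2 and 209 without a trend. With a library left out the totals ran from 2358 to 5417 from D21 to D29, 241 to 2231 from D21 to D25 and 0 to 2014 from D25 to D29. In set 1, 538 genes against 283 passed −1 without the added 1. Counts and intervals cover counting error only, and LMX1B, with 1375 VC and 1497 TNFα UMIs, is the least precise member in single cells.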
